A study of Mus musculus with 12 samples.

Results

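Genes of DNA damage signaling and repair were read in whole mammary tumors of mice treated with doxorubicin, with an antibody to PD-1, or with both. The 43 genes were taken by symbol from a list given for these data and are 43 of the 21960 genes of the 12 tumor files. They hold 14 genes of homologous recombination, 5 of end joining, 7 of damage signaling, 6 of the Fanconi anemia pathway, 1 of mismatch repair, 4 of base excision and single-strand break repair, 4 of nucleotide excision repair and 2 of translesion synthesis. The groups of roles were set for this comparison.

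All tumors came from female MMTV-PyMT mice on a C57BL/6 background, in which the mouse mammary tumor virus promoter drives the polyoma virus middle T oncoprotein in mammary epithelium, and RNA was taken from snap frozen tumors. There were 4 groups of 3 tumors: control antibody (IgG1), anti-PD-1, doxorubicin plus control antibody (DOX/IgG1) and doxorubicin plus anti-PD-1 (DOX/anti-PD-1). Doxorubicin was injected at 5 mg/kg each week for 5 weeks, with 10 mg/kg of antibody the day after, starting when a tumor had reached 1 cm in diameter. Without doxorubicin, antibody was started at 0.6 cm, with 20 mg/kg as the first dose and 10 mg/kg later. Groups with and without doxorubicin are therefore also set apart by starting diameter, by first antibody dose and by schedule, and the parts of these cannot be told apart. The labels give no age of the mice at the time of sampling and do not say whether each tumor came from a different animal, so p-values measure the spread between these samples.

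Doxorubicin traps topoisomerase II on cut DNA and leaves double-strand breaks, which are sensed by the MRN complex and by the kinase ATM, while single-stranded DNA at stalled forks is signaled through ATR and CHK1. Homologous recombination repairs breaks from a sister chromatid, end joining ligates them directly, and the Fanconi anemia pathway unhooks crosslinks at forks. Mismatch and excision repair correct replication errors and damaged bases, and translesion polymerases copy past lesions; many genes of these pathways are transcribed mainly in cycling cells.

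Values are called TPM here, since the study's methods name log2 TPM values as the input of gene set enrichment. TPM is a level corrected for transcript length. The listed genes summed to 609418 to 725506 in a tumor and not to an equal total, so the values alone do not tell TPM from FPKM. Differences are given on the scale of log2(TPM + 1), as the first group minus the second. Values in every tumor are listed in the order of replicates 1, 2 and 3. Differences were tested with limma across all genes that reached 1 TPM in 3 or more tumors of a comparison, and a gene was called when its Benjamini-Hochberg adjusted p was below 0.1 and its log2 difference was above 1 in size. A value after ± is the standard error of a log2 difference, and intervals are 95% intervals. The exact permutation test, two-sided, has 20 arrangements for 3 tumors against 3 and so a smallest p of 0.1; with labels permuted within each antibody, 6 against 6 has 400 arrangements and a smallest p of 0.005.

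Epithelial markers were present in every tumor. None of the 12 marker genes was at 0 in any tumor, their summed level was 2439 to 4192 TPM, and Epcam was the most abundant of them in 8 of the 12 tumors. The IgG1 replicate 1 tumor was low in its summed and median levels and not in the repair genes alone. This tumor was not low in every list, as its epithelial markers summed to 4073 TPM. Its listed genes had the lowest sum of the 12 tumors (609418), the lowest median log2 level (4.483 against 4.619 to 4.862, over genes at 1 TPM in all tumors) and the lowest median-of-ratios factor (0.8512 against 0.9489 to 1.122), and a separate list of 46 other repair genes summed to 872 TPM against 981 to 1258 TPM. It had the lowest value of its group in 32 of 43 members and the lowest of all 12 tumors in 15, and its summed member level was 758 TPM against 1003 to 1296 TPM in the other 11. The file of DOX/IgG1 replicate 1 carries the word test in its column header, and the headers of the DOX/anti-PD-1 files end in another digit than those of the other groups; what these marks stand for was not given in the sources used here.

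All 43 members passed the filter in every comparison, and 42 had a value above 0 in all 12 tumors. Fancb was at 0 in DOX/anti-PD-1 replicate 3 only. Trp53bp1, a mediator at break sites, had the highest level in each tumor, at 115 to 219 TPM, and Bard1, Rad51b, Rad51c and Fancb had group means below 6 TPM in every group.

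**Figure D1:**
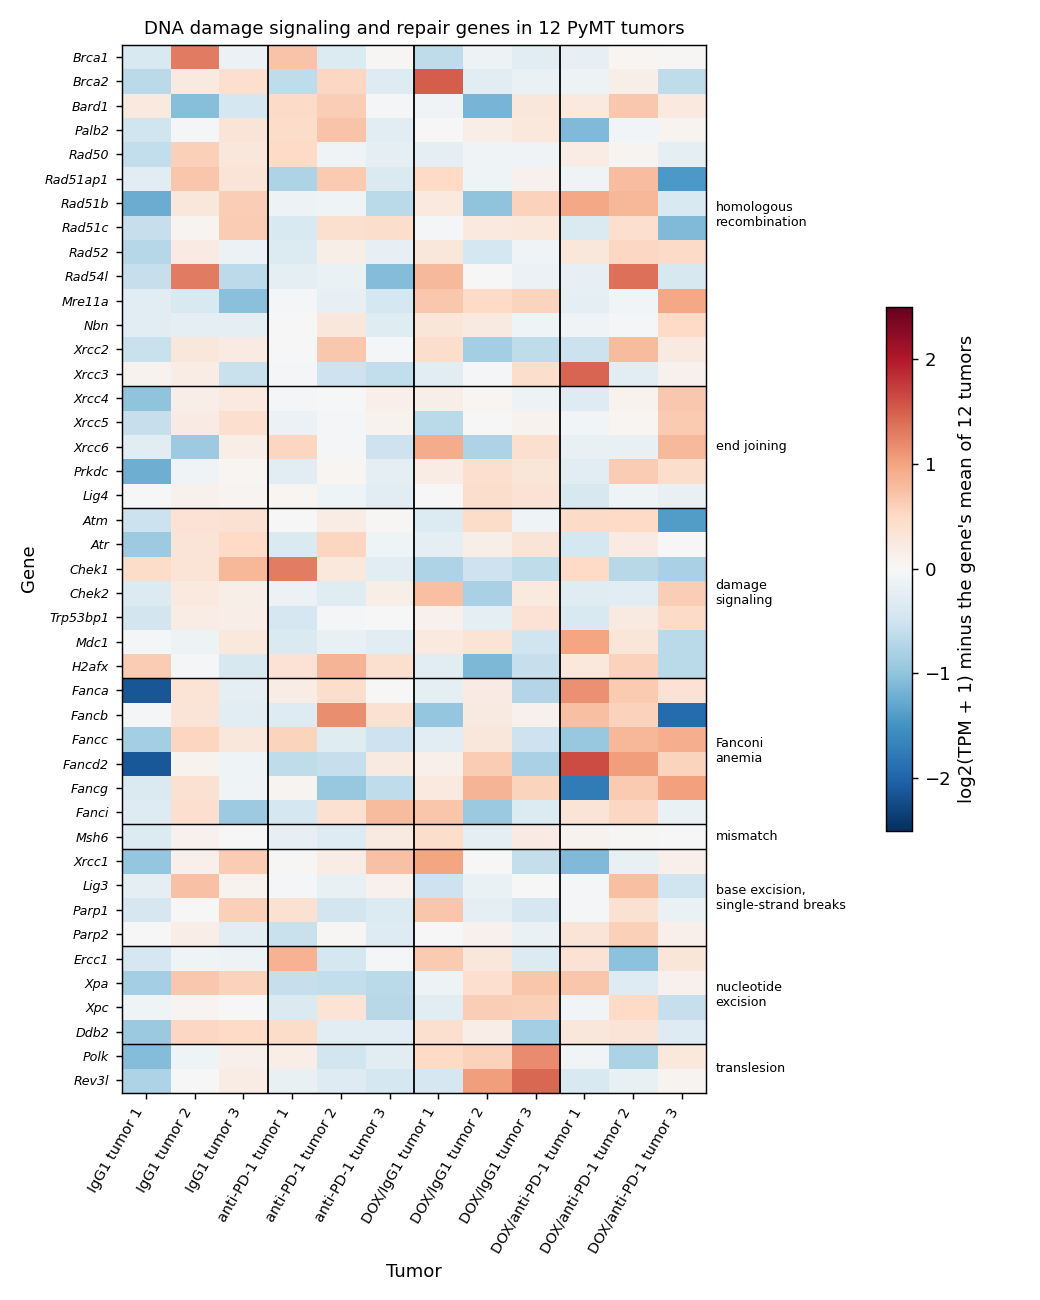
The level of each of the 43 members in each of the 12 tumors, as the log2 distance from the mean of that gene, ordered by role. The column of IgG1 replicate 1 is low for most genes, and the tumors of a treatment group differ among themselves.

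Over both antibodies, 6 tumors with doxorubicin were set against 6 without, with the antibody as a covariate. The limma test called 0 of 43 members, against 3 of 14735 genes (0.0204%). At an unadjusted p below 0.05 it gave 4 members, 9.3% of the list, against 12% of all genes tested. Of these 4, Mre11a and Fancd2 were higher (8.82% of all genes were higher at that limit), and Chek1 and H2afx were lower (3.16% of all genes). The count of 4 became 2 without IgG1 replicate 1 and 7 without IgG1 replicate 2. No member was called with any tumor left out, although the number of genes called across the whole table moved widely: 212 without DOX/IgG1 replicate 1, 27 without DOX/anti-PD-1 replicate 2, 6 without DOX/anti-PD-1 replicate 1, 5 without anti-PD-1 replicate 3, 1 without DOX/anti-PD-1 replicate 3, and 0 without IgG1 replicate 2, IgG1 replicate 3, anti-PD-1 replicate 1 or DOX/IgG1 replicate 3.

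The median log2 difference of the members with doxorubicin was 0.10, and that of all genes tested was 0.12. Leaving out 1 tumor moved the median of the members to between 0.013 (without IgG1 replicate 1) and 0.193 (without IgG1 replicate 3), and median-of-ratios scaling gave -0.018. The difference was above 0 in 30 of 43 members and in 63.3% of all genes. Scaling the tumors by the median of ratios lowered the median of all genes by 0.109, so a value of that size on the log2 scale depends on how the tumors are scaled. For 28 of 43 members the interval lay within a log2 difference of -1 to 1, and for the other 15 a difference larger than 1 was not outside the interval. Single tumors weighed on most members: with 1 left out, the log2 difference of 36 of 43 moved by over 1.5 times or changed sign, and that of 15 changed sign. The other 7 were Rad52, Mre11a, Nbn, Chek1, H2afx, Fancd2 and Parp2.

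**Figure D2:**
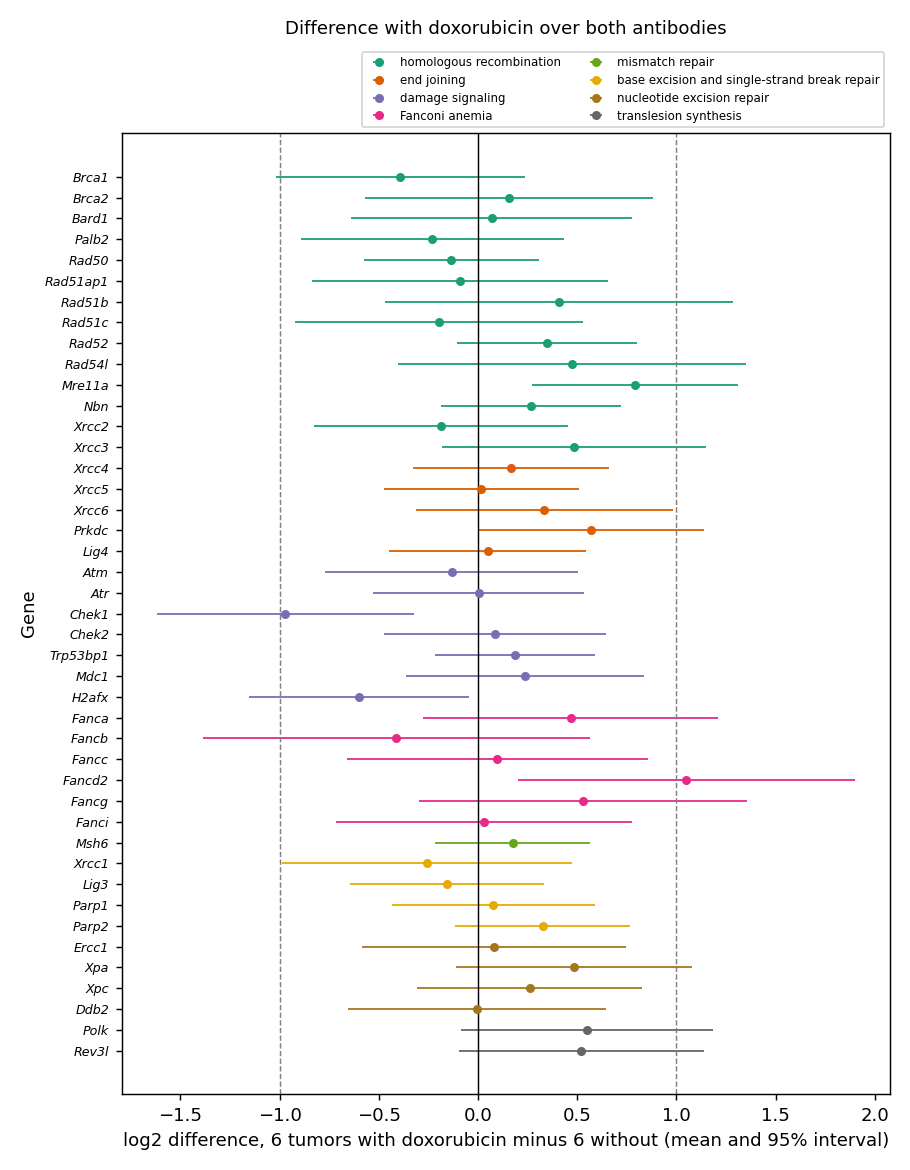
The log2 difference with doxorubicin over both antibodies for each member, with its interval, grouped by role. The intervals of Mre11a, Fancd2, Chek1 and H2afx do not reach 0, and those of all other members, in every role, include it.

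Set side by side, the roles had the following differences with doxorubicin over both antibodies. The 19 genes of double-strand break repair (homologous recombination and end joining) had a median log2 difference of 0.16 and 13 were above 0. In the 6 Fanconi genes the median was 0.28 with 5 above 0, and Msh6, the only mismatch repair gene of the list, had 0.18. The 8 excision repair genes had a median of 0.08 with 5 above 0. Damage signaling had a median of 0 with 4 of 7 above 0, and translesion synthesis 0.54 with both genes above 0. The mean of damage signaling was -0.17. In it 2 of 7 genes, Chek1 and H2afx, had an unadjusted p below 0.05 (28.6%, against 12% of all genes). None of these medians was tested, and genes of a role are not replicates. Leaving out 1 tumor moved the mean log2 difference of the Fanconi genes from 0.15 (without IgG1 replicate 1) to 0.44 (without IgG1 replicate 2), and that of homologous recombination from 0.04 to 0.20 with the same tumors left out. Nucleotide excision repair had means of 0.08 to 0.27, again between these 2. The mean of base excision and single-strand break repair turned from -0.09 without IgG1 replicate 1 to 0.06 without DOX/IgG1 replicate 3. Without IgG1 replicate 1 the mean was also at its lowest for end joining (0.123), damage signaling (-0.221) and translesion synthesis (0.339). The highest means of these roles were 0.315 without DOX/anti-PD-1 replicate 1, -0.106 without DOX/anti-PD-1 replicate 3 and 0.654 without DOX/anti-PD-1 replicate 2, and Msh6 had 0.105 to 0.254, without DOX/IgG1 replicates 1 and 2.

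Among the genes of homologous recombination, Mre11a (ENSMUSG00000031928, chr9:14784654-14837123), the nuclease of the MRN complex that senses breaks and starts their resection, had 20.4, 18.8 and 11.6 TPM in the IgG1 tumors, 24.5, 21.6 and 18.1 with anti-PD-1, 40.6, 35.6 and 37 with DOX/IgG1 and 20.9, 23.7 and 49.4 with DOX/anti-PD-1. All 3 DOX/IgG1 tumors lay above all 6 tumors without doxorubicin; with DOX/anti-PD-1, replicate 3 was the highest of the 12, and replicates 1 and 2 lay within the range of the tumors without doxorubicin. The log2 difference was 0.79 ± 0.24 over both antibodies (0.27 to 1.31, unadjusted p 0.00547, exact p 0.025). Its limma p adjusted by Benjamini-Hochberg was 0.241, and 0.183 to 0.397 over 18 alternatives. In DOX/IgG1 vs IgG1 the difference was 1.15 ± 0.30 (adjusted p 0.46, and 0.227 to 0.86 over 13 alternatives), and in DOX/anti-PD-1 vs anti-PD-1 it was 0.44 ± 0.35 (-0.35 to 1.22), or 0.065 without DOX/anti-PD-1 replicate 3 and 0.664 without DOX/anti-PD-1 replicate 1. The promoter window of Mre11a, 250 bases before to 50 after the start in RefSeq (chr9:14784404-14784703, plus strand, GRCm38.p6), is shown because this gene had the largest difference of its role; capitals mark its CCAAT boxes (CCAAT, or ATTGG on the other strand).
Mre11a: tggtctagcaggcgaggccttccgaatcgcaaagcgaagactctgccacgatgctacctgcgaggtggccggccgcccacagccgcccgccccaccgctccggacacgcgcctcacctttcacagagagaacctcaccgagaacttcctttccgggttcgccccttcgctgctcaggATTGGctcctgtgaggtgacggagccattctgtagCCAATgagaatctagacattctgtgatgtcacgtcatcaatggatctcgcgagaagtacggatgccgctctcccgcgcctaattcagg

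The other members of the MRN complex were read beside it. Nbn had 9.15, 9.48 and 9.41 TPM in the IgG1 tumors, 11.2, 14 and 9.05 with anti-PD-1, 14.3, 13.4 and 10.4 with DOX/IgG1 and 10.7, 11 and 16.6 with DOX/anti-PD-1. All 3 DOX/IgG1 tumors were above the 3 IgG1 tumors, whereas the groups given anti-PD-1 overlapped. The log2 difference of Nbn over both antibodies was 0.27 ± 0.21 (-0.19 to 0.72, exact p 0.08). Rad50, the most abundant gene of homologous recombination, had 40.2, 94.1 and 75.7 TPM in the IgG1 tumors, 87.9, 58.4 and 52.5 with anti-PD-1, 52.1, 58.6 and 58.2 with DOX/IgG1 and 70.8, 65.7 and 53 with DOX/anti-PD-1. The tumors with doxorubicin lay inside the range of those without, and the difference was -0.14 ± 0.21 (-0.58 to 0.31), from -0.28 without IgG1 replicate 1 to -0.012 without IgG1 replicate 2.

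Brca1 (ENSMUSG00000017146, chr11:101488764-101551955), which directs breaks into recombination, had 10.7, 36.3 and 12.7 TPM in the IgG1 tumors, 24, 11 and 14.5 with anti-PD-1, 8.79, 12.9 and 11.5 with DOX/IgG1 and 12.2, 14.6 and 14.5 with DOX/anti-PD-1. The highest values were in IgG1 replicate 2 and anti-PD-1 replicate 1, and the other 4 tumors without doxorubicin overlapped with all 6 tumors with it. The log2 difference was -0.39 ± 0.29 (-1.02 to 0.23, exact p 0.28), and it ranged from -0.52 to -0.14 with 1 tumor left out, the smallest without IgG1 replicate 2. For Brca2, which loads the recombinase, values were 8.57, 16.8 and 19.3 TPM in the IgG1 tumors, 8.81, 20.9 and 11.2 with anti-PD-1, 42.6, 11.6 and 12.6 with DOX/IgG1 and 13, 15.8 and 8.86 with DOX/anti-PD-1. DOX/IgG1 replicate 1 was the highest of the 12 and the other 11 overlapped between groups. Rad52, an annealing factor, had 12.7, 25 and 19.4 TPM in the IgG1 tumors, 16.8, 24 and 18.6 with anti-PD-1, 26.5, 15.7 and 20.2 with DOX/IgG1 and 26.3, 31.4 and 30.4 with DOX/anti-PD-1; the 3 DOX/anti-PD-1 tumors were above the 3 anti-PD-1 tumors (log2 difference 0.56 ± 0.26, -0.03 to 1.14), and the groups given IgG1 overlapped. The other 8 genes of this role, Bard1, Palb2, Rad51ap1, Rad51b, Rad51c, Rad54l, Xrcc2 and Xrcc3, had log2 differences of -0.23 to 0.48 over both antibodies, and the interval of each included 0.

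All 5 end joining genes had a log2 difference above 0 over both antibodies, from 0.02 for Xrcc5 to 0.57 for Prkdc, and none had an unadjusted p below 0.05. Prkdc (ENSMUSG00000022672, chr16:15637866-15842235), the kinase that binds broken ends with the Ku subunits, had 3.77, 9.5 and 10.6 TPM in the IgG1 tumors, 8.33, 10.6 and 8.51 with anti-PD-1, 11.8, 14 and 12.8 with DOX/IgG1 and 8.14, 16.4 and 14.2 with DOX/anti-PD-1. DOX/IgG1 tumors were all above IgG1 tumors, the groups with anti-PD-1 overlapped, and IgG1 replicate 1 was the lowest of the 12. Its log2 difference was 0.57 ± 0.27 (-0.0021 to 1.14, unadjusted p 0.0508, exact p 0.035), and the adjusted p in limma (Benjamini-Hochberg) was 0.419, and 0.296 to 0.592 over 18 alternatives. It was 0.37 without IgG1 replicate 1.

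Xrcc6, a Ku subunit and the most abundant end joining gene, had 42.8, 27.1 and 57.7 TPM in the IgG1 tumors, 75, 50.7 and 35.9 with anti-PD-1, 98.8, 29.9 and 68.4 with DOX/IgG1 and 45.1, 45.4 and 91 with DOX/anti-PD-1. The 2 highest values were in tumors with doxorubicin, DOX/IgG1 replicate 1 and DOX/anti-PD-1 replicate 3, but DOX/IgG1 replicate 2 was the next to lowest of the 12, and the difference was 0.33 ± 0.30 (-0.31 to 0.98). It was 0.15 without DOX/IgG1 replicate 1 and 0.525 without DOX/IgG1 replicate 2. Lig4, the ligase of the pathway, had 5.06, 5.45 and 5.31 TPM in the IgG1 tumors, 5.17, 4.58 and 3.94 with anti-PD-1, 5.03, 7.17 and 6.74 with DOX/IgG1 and 3.55, 4.58 and 4.3 with DOX/anti-PD-1. All 3 DOX/anti-PD-1 tumors were below the 3 DOX/IgG1 tumors, with a log2 difference of -0.50 ± 0.40 (-1.42 to 0.42, unadjusted p 0.246). Over both antibodies Xrcc4, Xrcc5 and Lig4 differed by 0.17, 0.02 and 0.05, with intervals that lay between -0.47 and 0.66.

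In damage signaling, Chek1 (ENSMUSG00000032113, chr9:36708482-36727065), the kinase downstream of ATR that holds the cell cycle when replication stalls, had 16.2, 15 and 21.4 TPM in the IgG1 tumors, 29.6, 14.1 and 9.36 with anti-PD-1, 6.36, 7.77 and 7.1 with DOX/IgG1 and 16.9, 6.72 and 6.2 with DOX/anti-PD-1. In 5 of the 6 tumors with doxorubicin it was below every tumor without; DOX/anti-PD-1 replicate 1 lay inside the range of those without, so the groups given anti-PD-1 overlapped and those given IgG1 did not. The log2 difference was -0.97 ± 0.30 over both antibodies (-1.62 to -0.32, unadjusted p 0.00604, exact p 0.015). By limma with Benjamini-Hochberg its adjusted p was 0.241, and 0.169 to 0.395 over 18 alternatives. In DOX/IgG1 vs IgG1 the difference was -1.19 ± 0.33 (adjusted p 0.469, and 0.227 to 0.86 over 13 alternatives), and in DOX/anti-PD-1 vs anti-PD-1 -0.76 ± 0.49 (-1.87 to 0.36), or -0.328 without anti-PD-1 replicate 1 and -1.177 without DOX/anti-PD-1 replicate 1. With any 1 tumor left out the difference over both antibodies was -1.18 to -0.81. The RefSeq promoter window of Chek1 (chr9:36726609-36726908, minus strand, GRCm38.p6) is shown because this gene had the lowest log2 difference of the 43; capitals mark the letters GCGGGAA, which are part of sites of the E2F type.
Chek1: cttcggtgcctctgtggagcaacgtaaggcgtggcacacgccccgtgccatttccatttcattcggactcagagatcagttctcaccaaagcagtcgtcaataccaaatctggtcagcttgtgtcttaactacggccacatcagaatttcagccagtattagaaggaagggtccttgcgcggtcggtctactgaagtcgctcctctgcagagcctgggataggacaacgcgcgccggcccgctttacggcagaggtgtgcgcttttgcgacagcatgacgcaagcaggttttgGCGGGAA

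Chek1 is transcribed in cycling cells, so the levels of 18 mitosis genes are given beside it. Their mean log2 level was 4.24, 4.64 and 4.63 in the IgG1 tumors, 4.57, 4.99 and 4.53 with anti-PD-1, 4.78, 3.19 and 3.78 with DOX/IgG1 and 5.08, 4.87 and 3.89 with DOX/anti-PD-1. DOX/IgG1 replicates 2 and 3 and DOX/anti-PD-1 replicate 3 were below all 6 tumors without doxorubicin, whereas DOX/IgG1 replicate 1 and DOX/anti-PD-1 replicate 2, in which Chek1 was low, lay within their range. The part of proliferation in the Chek1 difference was not tested. In whole tumors, fewer cells of a type and less RNA per cell cannot be told apart.

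H2afx (ENSMUSG00000049932, chr9:44334694-44336077), the histone variant that is phosphorylated around breaks, had 33.1, 20.3 and 15.8 TPM in the IgG1 tumors, 27.3, 38.7 and 27.9 with anti-PD-1, 17.4, 9.07 and 13.7 with DOX/IgG1 and 25.6, 31.7 and 12.9 with DOX/anti-PD-1. The 3 lowest values of the 12 were in tumors with doxorubicin, and the groups overlapped for each antibody. Its log2 difference was -0.60 ± 0.26 (-1.15 to -0.04, unadjusted p 0.0364, exact p 0.055; limma p adjusted by Benjamini-Hochberg 0.378, and 0.263 to 0.573 over 18 alternatives). These are mRNA levels, and the phosphorylated protein was not measured here.

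Atm, the kinase that responds to breaks, had 45.7, 85.8 and 87.2 TPM in the IgG1 tumors, 65.9, 75.5 and 68 with anti-PD-1, 52.7, 92 and 62.1 with DOX/IgG1 and 93.7, 93.9 and 24.7 with DOX/anti-PD-1. DOX/anti-PD-1 held the lowest value (replicate 3) and the 2 highest values of the 12, and the difference was -0.13 ± 0.30 (-0.77 to 0.51), which turned to 0.155 without that replicate 3 and was -0.275 without IgG1 replicate 1. Trp53bp1 had 115, 180 and 177 TPM in the IgG1 tumors, 117, 154 and 158 with anti-PD-1, 170, 133 and 204 with DOX/IgG1 and 121, 185 and 219 with DOX/anti-PD-1. Its groups overlapped and the difference was 0.19 ± 0.19 (-0.22 to 0.59), so a difference of more than 0.59 on the log2 scale was outside the interval. The difference was 0.097 without DOX/anti-PD-1 replicate 3 and 0.287 without DOX/anti-PD-1 replicate 1. Its lowest value over 18 alternatives was 0.064. Atr, Chek2 and Mdc1 differed by 0, 0.08 and 0.24, with exact p from 0.415 to 0.985.

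**Figure D3:**
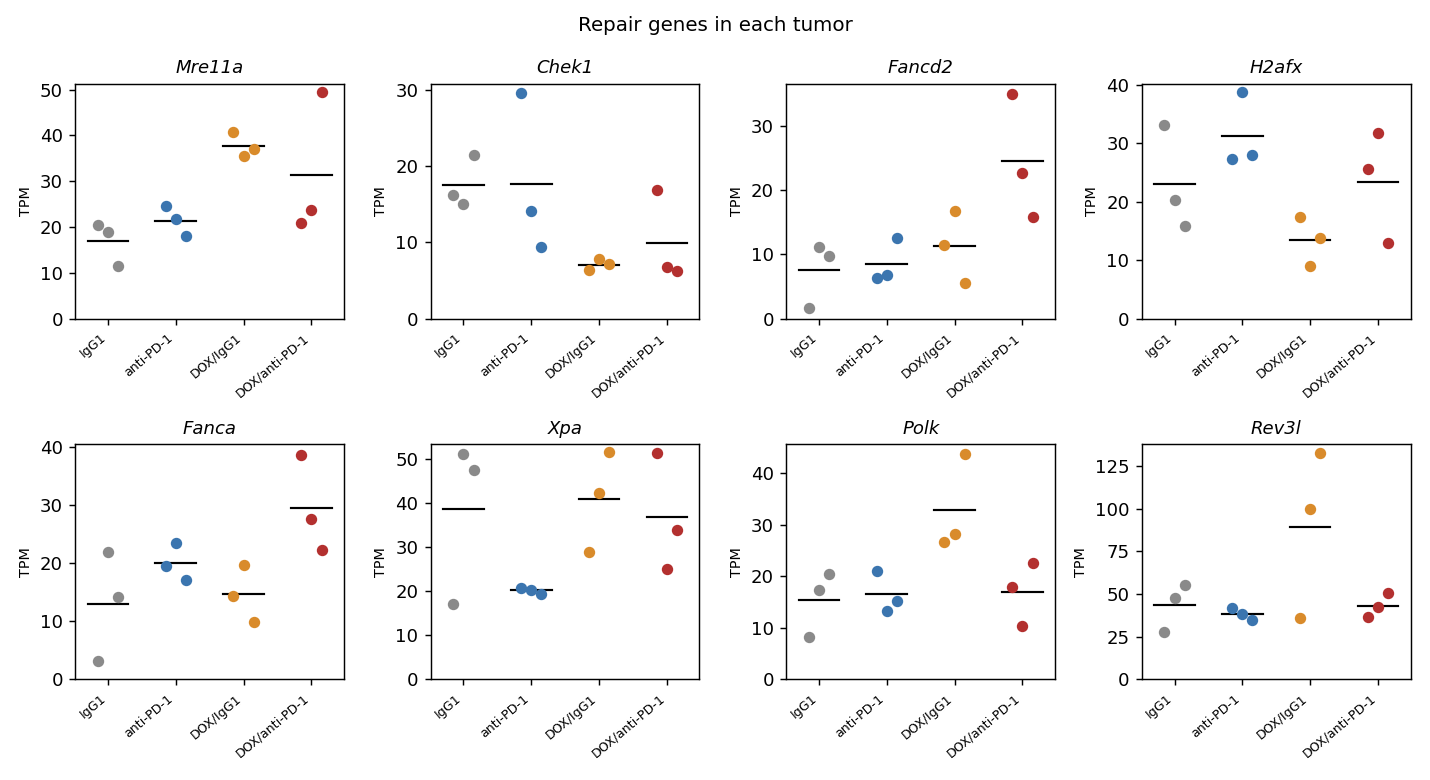
The TPM of Mre11a, Chek1, Fancd2, H2afx, Fanca, Xpa, Polk and Rev3l in each tumor, with the group means. Mre11a, Polk and Chek1 separate the 3 DOX/IgG1 tumors from the IgG1 tumors, and Fancd2 and Xpa separate the DOX/anti-PD-1 tumors from the anti-PD-1 tumors.

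In the Fanconi anemia pathway, Fancd2 (ENSMUSG00000034023, chr6:113531682-113597017), which is ubiquitinated when the pathway is active, had 1.65, 11.2 and 9.69 TPM in the IgG1 tumors, 6.4, 6.73 and 12.5 with anti-PD-1, 11.5, 16.8 and 5.57 with DOX/IgG1 and 35, 22.7 and 15.9 with DOX/anti-PD-1. All 3 DOX/anti-PD-1 tumors were above all 6 tumors without doxorubicin, as was DOX/IgG1 replicate 2; DOX/IgG1 replicates 1 and 3 overlapped with the tumors without doxorubicin, of which IgG1 replicate 1 was the lowest. The log2 difference over both antibodies was 1.05 ± 0.40 (0.20 to 1.90, unadjusted p 0.019, exact p 0.045), with a Benjamini-Hochberg adjusted p in limma of 0.329, and 0.263 to 0.49 over 18 alternatives. It was 0.78 without IgG1 replicate 1 and 1.27 without IgG1 replicate 2. In DOX/anti-PD-1 vs anti-PD-1 the difference was 1.41 ± 0.39 (0.54 to 2.28, adjusted p 0.479, and 0.416 to 0.837 over 13 alternatives), and in DOX/IgG1 vs IgG1 it was 0.69 ± 0.65 (-0.77 to 2.16), or -0.008 without IgG1 replicate 1 and 1.094 without IgG1 replicate 2.

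Fanca (ENSMUSG00000032815, chr8:123268300-123318576), a subunit of the core complex that ubiquitinates FANCD2, had 3.11, 21.9 and 14.2 TPM in the IgG1 tumors, 19.6, 23.6 and 17.1 with anti-PD-1, 14.3, 19.8 and 9.9 with DOX/IgG1 and 38.7, 27.6 and 22.3 with DOX/anti-PD-1. The 3 DOX/anti-PD-1 tumors were above the 3 DOX/IgG1 tumors, and the lowest of the 12 was IgG1 replicate 1. The difference of the groups given doxorubicin was 0.98 ± 0.36 (0.16 to 1.79, unadjusted p 0.0239; limma with Benjamini-Hochberg, adjusted p 0.988, and 0.637 to 1 over 13 alternatives). Over both antibodies the difference with doxorubicin was 0.47 ± 0.35, and it was 0.15 without IgG1 replicate 1. The RefSeq window of Fanca (chr8:123318527-123318826, minus strand, GRCm38.p6) is shown beside that of Mre11a, since it also holds 2 CCAAT boxes, in capitals, near the start.
Fanca: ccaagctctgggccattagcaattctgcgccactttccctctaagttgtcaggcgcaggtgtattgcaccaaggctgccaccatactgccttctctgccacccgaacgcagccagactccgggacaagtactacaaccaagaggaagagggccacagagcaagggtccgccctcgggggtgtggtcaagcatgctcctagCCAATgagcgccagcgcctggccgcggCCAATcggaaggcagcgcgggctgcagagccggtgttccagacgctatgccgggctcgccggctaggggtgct

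Fancg, another subunit of the core complex, had 14.9, 25.6 and 18.4 TPM in the IgG1 tumors, 20.5, 9.67 and 12.2 with anti-PD-1, 23.4, 36 and 29 with DOX/IgG1 and 5.12, 31.5 and 40.8 with DOX/anti-PD-1. DOX/IgG1 replicates 2 and 3 and DOX/anti-PD-1 replicates 2 and 3 held the 4 highest values, and DOX/anti-PD-1 replicate 1 held the lowest of the 12. The difference of 0.53 ± 0.39 (-0.30 to 1.36) became 0.919 without that tumor and 0.303 without DOX/anti-PD-1 replicate 3. Fancb, Fancc and Fanci differed by -0.41, 0.10 and 0.03, and their intervals reached from -1.39 to 0.86. No promoter window of Fancd2 or H2afx was in the table used.

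For mismatch repair, Msh6 (ENSMUSG00000005370, chr17:87975062-87990892), which binds mismatched bases, had 18.7, 25.8 and 24.1 TPM in the IgG1 tumors, 20.6, 18.9 and 28.2 with anti-PD-1, 32.8, 20.2 and 27.9 with DOX/IgG1 and 25.3, 24.5 and 23.8 with DOX/anti-PD-1. All 4 groups overlapped, with DOX/IgG1 replicate 1 the highest and IgG1 replicate 1 the lowest. Over both antibodies the log2 difference with doxorubicin was 0.18 ± 0.18 (-0.22 to 0.57, unadjusted p 0.353), and 0.058 to 0.254 over 18 alternatives. It was 0.22 ± 0.30 and 0.14 ± 0.26 with IgG1 and with anti-PD-1. These 2 values ranged from 0.067 to 0.403 and from 0.023 to 0.299 with a tumor left out. A difference larger than 0.57 on the log2 scale was outside the interval, and its standard error was the smallest of the 43 members.

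Of the genes of base excision and single-strand break repair, Lig3, the ligase that seals nicks, had 53.7, 104 and 66.8 TPM in the IgG1 tumors, 60.6, 55 and 67.4 with anti-PD-1, 43.7, 55.8 and 63 with DOX/IgG1 and 60.5, 106 and 44.3 with DOX/anti-PD-1. Parp1, which binds strand breaks, had 33.6, 45 and 68.3 TPM in the IgG1 tumors, 59, 32.6 and 35.5 with anti-PD-1, 73.1, 38.7 and 33.4 with DOX/IgG1 and 44, 58.8 and 40.2 with DOX/anti-PD-1. In both genes the groups overlapped, and the differences were -0.15 ± 0.23 for Lig3 (-0.64 to 0.33) and 0.08 ± 0.24 for Parp1 (-0.44 to 0.59). That of Lig3 was -0.008 without IgG1 replicate 2 and -0.336 without DOX/anti-PD-1 replicate 2, and that of Parp1 was -0.058 without DOX/IgG1 replicate 1 and 0.209 without IgG1 replicate 3. Parp2 had 16.4, 18.7 and 13.5 TPM in the IgG1 tumors, 11, 16.9 and 13 with anti-PD-1, 16.5, 17.8 and 14.7 with DOX/IgG1 and 20.9, 25.6 and 18.1 with DOX/anti-PD-1. The DOX/anti-PD-1 tumors were above the anti-PD-1 and the DOX/IgG1 tumors, with log2 differences of 0.63 ± 0.29 (-0.03 to 1.29) and 0.37 ± 0.29 (-0.30 to 1.03), and DOX/IgG1 overlapped with IgG1. The second of these was 0.24 without DOX/anti-PD-1 replicate 2. Xrcc1, a scaffold of the pathway, ranged from 15.7 to 70.3 TPM, and both ends of that range were in tumors with doxorubicin.

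In nucleotide excision repair, Xpa (ENSMUSG00000028329, chr4:46155347-46196311), which verifies the damaged strand, had 17.1, 51.1 and 47.4 TPM in the IgG1 tumors, 20.8, 20.2 and 19.4 with anti-PD-1, 28.9, 42.2 and 51.5 with DOX/IgG1 and 51.3, 25 and 33.9 with DOX/anti-PD-1. The 3 anti-PD-1 tumors were below all 6 tumors with doxorubicin, and IgG1 replicate 1 was the only tumor below them. In DOX/anti-PD-1 vs anti-PD-1 the log2 difference was 0.78 ± 0.30 (0.10 to 1.45, unadjusted p 0.0282; adjusted p by limma with Benjamini-Hochberg 0.533, and 0.399 to 0.845 over 13 alternatives), and in DOX/IgG1 vs IgG1 it was 0.19 ± 0.43 (-0.79 to 1.17). The first was 0.513 without DOX/anti-PD-1 replicate 1, and the second was -0.3 without IgG1 replicate 1 and 0.464 without IgG1 replicate 2. Over both antibodies it was 0.48 ± 0.28 (exact p 0.145), and 0.299 without IgG1 replicate 1. Ercc1, Xpc and Ddb2 differed by 0.08, 0.26 and 0 over both antibodies, and each interval included 0.

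The 2 translesion polymerases of the list were highest with DOX/IgG1. Polk (ENSMUSG00000021668, chr13:96480690-96542579), which copies past bulky lesions, had 8.32, 17.3 and 20.5 TPM in the IgG1 tumors, 21.1, 13.3 and 15.3 with anti-PD-1, 26.7, 28.2 and 43.8 with DOX/IgG1 and 17.9, 10.4 and 22.6 with DOX/anti-PD-1. All 3 DOX/IgG1 tumors were above the other 9. In DOX/IgG1 vs IgG1 the log2 difference was 1.10 ± 0.39 (0.23 to 1.98, unadjusted p 0.0192; limma, Benjamini-Hochberg adjusted p 0.56, and 0.269 to 0.899 over 13 alternatives), and it was -0.01 ± 0.35 (-0.80 to 0.79) in DOX/anti-PD-1 vs anti-PD-1. The log2 difference of the DOX/anti-PD-1 tumors from the DOX/IgG1 tumors was -0.95 ± 0.36 (unadjusted p 0.0298, adjusted p 0.988, and 0.625 to 1 over 13 alternatives). Rev3l, the catalytic subunit of polymerase zeta, had 27.6, 47.4 and 55 TPM in the IgG1 tumors, 41.9, 38.3 and 35 with anti-PD-1, 35.9, 99.5 and 132 with DOX/IgG1 and 36.5, 42.2 and 50.3 with DOX/anti-PD-1. DOX/IgG1 replicates 2 and 3 were above the other 10 tumors, and DOX/IgG1 replicate 1 lay inside their range, so the difference in DOX/IgG1 vs IgG1 was 0.89 ± 0.48 with an interval of -0.19 to 1.97, and it was 1.441 without that tumor and 0.513 without DOX/IgG1 replicate 3.

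The 4 comparisons of groups share tumors, so each is given by its own values. In DOX/IgG1 vs IgG1 limma called 0 of 43 members and 5 of 13874 genes (0.036%). The number of genes called was 122 without DOX/IgG1 replicate 1, 2 without DOX/IgG1 replicate 2 and 0 without any of the other 4 tumors, and 0 members were called each time. At an unadjusted p below 0.05 there were 3 members, 6.98%, against 7.73% of all genes: Mre11a and Polk higher (5.03% of all genes) and Chek1 lower (2.7%). That count was 5 without DOX/IgG1 replicate 1. The 2 groups did not overlap in 5 members, against 14% of all genes: Mre11a, Nbn, Prkdc and Polk higher and Chek1 lower. With a tumor left out, 3 values face 2 and groups come apart more easily. The count was then 7 to 11, with 11 without IgG1 replicate 1 and 11 without DOX/IgG1 replicate 1. No share of all genes at 3 against 2 is given here, so these counts cannot be set against the 14%. Beside these members, 18 of 18 mitosis genes and 16 of 21 S phase genes had a log2 difference below 0, with medians of -0.517 and -0.184, while 60.6% of all genes were above 0 with a median of 0.121. Of these lists limma called 0 genes, with 2 and 0 at an unadjusted p below 0.05. Without DOX/IgG1 replicate 2 the medians were -0.143 and 0.031, and without DOX/IgG1 replicate 1 they were -0.961 and -0.433. Of the cell type markers, Col1a1 and Postn of 9 fibroblast, Epcam of 12 epithelial and Cdh5 of 6 endothelial markers were lower at an unadjusted p below 0.05, and Cd3g of 4 lymphocyte markers tested was higher; the groups did not overlap in any of these 5. The 2 fibroblast markers are 22.2% of their list, and the 4 lymphocyte markers were all above 0 with a median of 0.683. Limma called 0 of them. The medians were -0.158, -0.19 and -0.096 for the fibroblast, epithelial and endothelial lists. Other markers of these lists went the other way. In the same order, 4 of 9, 5 of 12 and 2 of 6 were above 0, with highest differences of 1.366, 0.843 and 0.962. With a tumor left out the 2 fibroblast markers stayed 2, and no endothelial marker was lower at that limit without any 1 of the 3 IgG1 tumors or without DOX/IgG1 replicate 3. Without DOX/IgG1 replicate 1, 3 fibroblast, 4 epithelial and 3 lymphocyte markers were higher at that limit, and the fibroblast median was 0.106. The part of these lists in the differences of the repair genes was not tested.

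In DOX/anti-PD-1 vs anti-PD-1 limma called 0 members and 0 of 13736 genes (0%). Fancd2 and Xpa had an unadjusted p below 0.05, 2 of 43 members, against 8.63% of all genes (6.3% higher and 2.33% lower). This count was 1 without any 1 of the 3 anti-PD-1 tumors, 4 without DOX/anti-PD-1 replicate 1 and 7 without DOX/anti-PD-1 replicate 3. Groups that did not overlap were found in 4 members, Rad52, Fancd2, Parp2 and Xpa, all higher, against 14.9% of all genes. That count became 7 without anti-PD-1 replicate 1, 10 without DOX/anti-PD-1 replicate 1 and 9 without DOX/anti-PD-1 replicate 3. Groups come apart more easily with a tumor left out, and these counts cannot be set against the 14.9%. Across all genes, 4 were called without DOX/anti-PD-1 replicate 2 and 1 without anti-PD-1 replicate 1, DOX/anti-PD-1 replicate 1 or DOX/anti-PD-1 replicate 3.

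Markers of fat and stroma are given beside Rad52, Fancd2, Parp2 and Xpa for this comparison. All 6 adipocyte markers had a log2 difference above 0, with a median of 1.43, 5 of them at an unadjusted p below 0.05 and 4 with groups that did not overlap. All 9 fibroblast markers were above 0, with a median of 0.63, 4 at that limit and 6 with groups that did not overlap. Of all genes 60% were above 0, with a median of 0.108. At that limit 6.3% of all genes were higher, and the groups did not overlap in 14.9%. By limma 0 of either list were called. With a tumor left out, the adipocyte markers at that limit numbered 2 without DOX/anti-PD-1 replicate 1, 3 without anti-PD-1 replicate 1 or 2, and 4 or 5 otherwise. The fibroblast markers numbered 2 without DOX/anti-PD-1 replicate 2 or 3, and 3 to 5 otherwise. With all 12 tumors in 1 fit the counts were 2 and 1. Of 12 epithelial markers 3 were higher at that limit, and 4 had a difference below 0. At the same limit 0 of the endothelial, skeletal muscle, lymphocyte and myeloid markers tested were higher. The medians of the S phase and mitosis genes were 0.23 and -0.075, and they were 0.406 and 0.272 without DOX/anti-PD-1 replicate 3 and 0.075 and -0.283 without DOX/anti-PD-1 replicate 1. As before, the part of these lists was not tested.

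Without doxorubicin, anti-PD-1 vs IgG1 gave 0 members called by limma, of 0 genes among 13692 (0%), and 0 members with an unadjusted p below 0.05, against 4.6% of all genes. Leaving out IgG1 replicate 1 gave 3 such members and leaving out IgG1 replicate 2 gave 1. The groups did not overlap in 1 member, Mdc1, lower with anti-PD-1, against 9.88% of all genes. That count was 13 without IgG1 replicate 1, 2 without IgG1 replicate 2 or 3, and 5 without any 1 of the anti-PD-1 tumors. Groups come apart more easily with a tumor left out, and these counts cannot be set against the 9.88%. Genes called across the table were 4 without IgG1 replicate 1, 2 without IgG1 replicate 2 and 1 without anti-PD-1 replicate 2. In this comparison 12 of 12 epithelial and 9 of 9 fibroblast markers were below 0, with medians of -0.329 and -0.373, whereas 47.2% of all genes were above 0 with a median of -0.026. Limma called 0 of these markers, 2 and 1 had an unadjusted p below 0.05, and 3 fibroblast markers had groups that did not overlap. The epithelial median was -0.479 to -0.249 with a tumor left out, and the count of 2 was 3 without IgG1 replicate 2, 0 without IgG1 replicate 3 and 1 without IgG1 replicate 1 or anti-PD-1 replicate 2 or 3. The fibroblast median was -0.558 to -0.193, its weakest without IgG1 replicate 3, and the count of 1 was 2 without IgG1 replicate 1 or 2. Of 6 adipocyte markers 5 were below 0, with a median of -0.693, and 0 were at that limit, but 5 were without IgG1 replicate 1 and 1 without anti-PD-1 replicate 1 or 3. Proliferation genes went the other way, with 16 of 21 S phase and 12 of 18 mitosis genes above 0 and medians of 0.314 and 0.242. Limma called 0 of them, and 0 had an unadjusted p below 0.05. At that limit 1 of 4 lymphocyte markers tested was higher and 1 of 7 myeloid markers tested was lower. The part of these lists was not tested.

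With doxorubicin in both groups, DOX/anti-PD-1 vs DOX/IgG1 had 0 members and 0 of 13946 genes called by limma (0%). At an unadjusted p below 0.05 there were 3 members against 4.7% of all genes: Fanca and Fancd2 higher and Polk lower with anti-PD-1. The count was 0 without DOX/IgG1 replicate 3 or DOX/anti-PD-1 replicate 2, and 5 without DOX/anti-PD-1 replicate 3. Groups did not overlap in 4 members, against 10.2% of all genes, with Fanca and Parp2 higher and Polk and Lig4 lower. That number was 11 without DOX/IgG1 replicate 1, 7 without DOX/IgG1 replicate 2, 8 without DOX/anti-PD-1 replicate 1 and 12 without DOX/anti-PD-1 replicate 3. Groups come apart more easily with a tumor left out, and these counts cannot be set against the 10.2%. Across all genes 4 were called without DOX/IgG1 replicate 1 and 1 without DOX/anti-PD-1 replicate 3.

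Genes of proliferation are given beside Fanca and Fancd2. In DOX/anti-PD-1 vs DOX/IgG1, 21 of 21 S phase genes and 17 of 18 mitosis genes had a log2 difference above 0, with medians of 0.575 and 0.63, against 46.3% of all genes and a median of -0.037. Of these, 2 S phase genes and 1 mitosis gene had an unadjusted p below 0.05, and limma called 0. Without DOX/IgG1 replicate 1 those counts were 5 and 7, and without DOX/anti-PD-1 replicate 3 they were 4 and 5. The median of the S phase genes was 0.359 to 0.818 with a tumor left out, and that of the mitosis genes was 0.302 to 1.051. All 17 p53 target genes tested were below 0 here, with a median of -0.45, and Polk was also lower. At an unadjusted p below 0.05, 3 of these 17 were lower (17.6%, against 4.7% of all genes), and limma called 0. Whether these lists account for the differences of Fanca, Fancd2 and Polk was not tested.

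Whether the difference with doxorubicin depended on the antibody was tested as an interaction over the 12 tumors. By limma 0 members and 1 of 14735 genes (0.00679%) were called, and 0 members had an unadjusted p below 0.05, against 4.71% of all genes. The lowest p of the members was that of Polk, at 0.0591, with an interaction of -1.11 ± 0.54 (-2.27 to 0.05; Benjamini-Hochberg adjusted p 0.993, and 0.767 to 1 over 18 alternatives). For Mre11a, Chek1, Fancd2 and H2afx the interaction was -0.71 ± 0.47, 0.43 ± 0.62, 0.71 ± 0.80 and 0.25 ± 0.53, and each interval included 0. With a tumor left out these 4 ranged from -1.082 to -0.473, 0.009 to 0.859, 0.312 to 1.415 and -0.039 to 0.608. Only 2 of 43 members had an interval within -1 to 1, so for the others a difference between the antibodies of more than 1 on the log2 scale was not outside the interval. The count of members at an unadjusted p below 0.05 was 2 without IgG1 replicate 1, DOX/IgG1 replicate 1 or DOX/anti-PD-1 replicate 3, and 1 without IgG1 replicate 3. Across all genes 1 was called without DOX/IgG1 replicate 1 or DOX/anti-PD-1 replicate 3, and 0 without any other tumor.

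**Figure D4:**
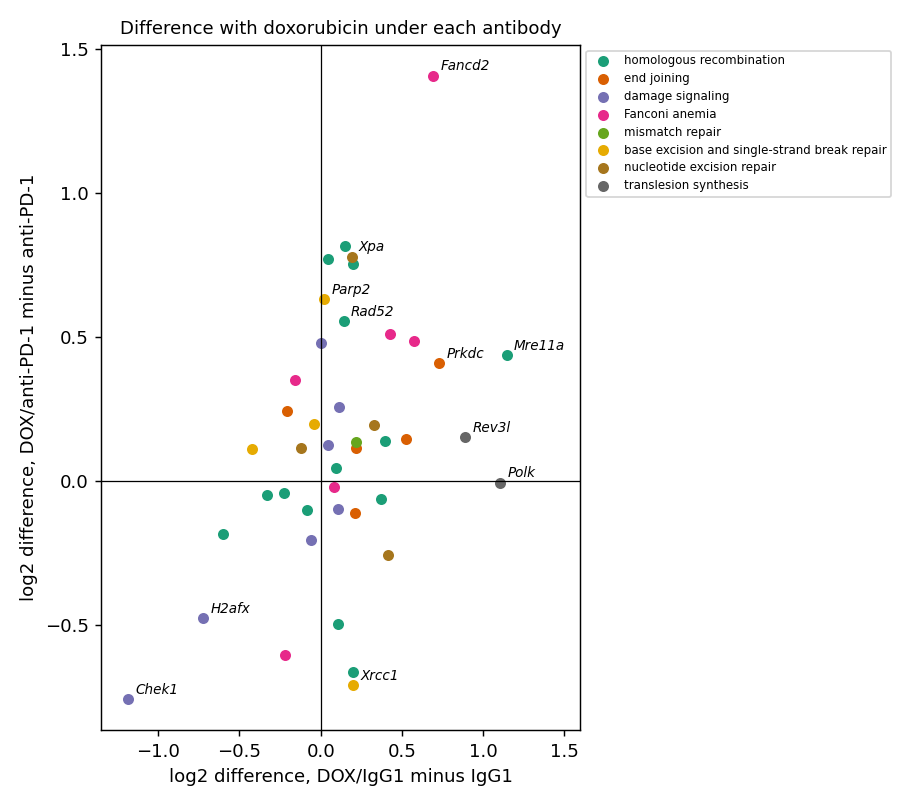
The log2 difference with doxorubicin in tumors given IgG1 (horizontal) and in tumors given anti-PD-1 (vertical) for each member. Chek1 lies low on both axes, Mre11a and Polk lie to the right, and Fancd2 lies at the top.

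The promoter windows were searched for 3 short motifs on both strands, chosen with the results known. RefSeq windows of 300 bases were found for 34 of the 43 members, 39 windows in all, as some genes have more than 1 start. GCGGGAA (or TTCCCGC), part of sites of the E2F type, was in 15 of 39 member windows (38.5%), in 4.6% of all 32851 windows and in 7.55% of the 14202 windows of tested genes. This form was taken after the Chek1 window had been read and the longer form planned at first (TTTCCCGC, TTTCGCGC, TTTGCCGC or TTTGGCGC, or their reverse complements) had not matched it; that form was in 9 member windows (23.1%), 2.26% of all and 3.55% of those of tested genes. Each match of the longer TTTCCCGC is also a match of the shorter form. By role, GCGGGAA was found in 5 of 11 genes of homologous recombination, 2 of 4 of end joining, 4 of 6 of damage signaling, 3 of 5 Fanconi genes and Msh6, and in none of the 7 genes of excision repair and translesion synthesis that had a window.

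CCAAT (or ATTGG) was in 20 of 39 member windows (51.3%) against 37.4% of all windows and 37.4% of those of tested genes. TTTGAA (or TTCAAA), the letters of the CHR element of cell cycle genes, was in 2 (5.13%) against 17.9% and 12.4%. The mean GC content was 58.6% in member windows, 59.9% in those of tested genes and 53.8% in all. Mre11a and Fanca held CCAAT and no GCGGGAA, and Chek1 held GCGGGAA and no CCAAT. Both windows of Polk held none of the 3 motifs. A match describes letters only, and binding was not measured here.

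Other genes of the same pathways were read from a separate list of 46. With doxorubicin over both antibodies 0 were called by limma and 2 had an unadjusted p below 0.05, both higher, which is 4.35% of the list against 12% of all genes. The median log2 difference was 0.039 against 0.116 over all genes, and it was -0.041 without IgG1 replicate 1 and -0.072 with median-of-ratios scaling. Rad9a, a clamp subunit that activates ATR signaling, had 3.94, 4.5 and 5.13 TPM in the IgG1 tumors, 3.2, 4.96 and 5.85 with anti-PD-1, 10.1, 6.23 and 5.98 with DOX/IgG1 and 7.4, 8.7 and 9.08 with DOX/anti-PD-1. All 6 tumors with doxorubicin were above all 6 without, and the difference was 0.67 ± 0.24 (exact p 0.005; limma, Benjamini-Hochberg adjusted p 0.307, and 0.241 to 0.443 over 18 alternatives). Rev1, a scaffold for translesion polymerases, had 14, 23.9 and 27.8 TPM in the IgG1 tumors, 35.2, 18.1 and 26.3 with anti-PD-1, 57.4, 44.2 and 40.9 with DOX/IgG1 and 32.5, 40.5 and 18.4 with DOX/anti-PD-1. As for Polk, the 3 DOX/IgG1 tumors were above the other 9, and the difference over both antibodies was 0.65 ± 0.27 (exact p 0.06).

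A list of 18 p53 target genes, chosen with earlier results of these data known, was read beside the repair genes. These are mRNA levels, and DNA damage was not measured here. With doxorubicin 0 of the 18 were called by limma, and 8 of 18 had an unadjusted p below 0.05, all higher. This is 44.4% of the list, and 8.82% of all genes were higher at that limit. The median log2 difference was 0.36, against 0.116 over all genes. Cdkn1a had 15.2, 12.4 and 8.99 TPM in the IgG1 tumors, 14, 10.7 and 29.3 with anti-PD-1, 54.8, 36.4 and 29.6 with DOX/IgG1 and 23.9, 13.7 and 67.6 with DOX/anti-PD-1. All DOX/IgG1 tumors were above all 6 tumors without doxorubicin, and DOX/anti-PD-1 replicates 1 and 2 overlapped with them. The difference was 1.19 ± 0.36 (exact p 0.03; limma p adjusted by Benjamini-Hochberg 0.24, and 0.152 to 0.395 over 18 alternatives). Phlda3 had 12.2, 11.8 and 13.3 TPM in the IgG1 tumors, 9.22, 8.86 and 8.37 with anti-PD-1, 32, 27.2 and 17.9 with DOX/IgG1 and 22.4, 11.9 and 42.7 with DOX/anti-PD-1. Here 5 of 6 tumors with doxorubicin were above all 6 without, all but DOX/anti-PD-1 replicate 2, and the difference was 1.11 ± 0.27 (adjusted p 0.196, and 0.0905 to 0.327 over 18 alternatives). Phlda3 was called by limma without DOX/anti-PD-1 replicate 2 (Benjamini-Hochberg adjusted p 0.0905). Plk2, a kinase, was called without DOX/IgG1 replicate 1, both over both antibodies (0.075) and in DOX/IgG1 vs IgG1 (0.0704), and no other p53 target gene was called in any alternative. Mdm2 had 42.1, 85.5 and 89.6 TPM in the IgG1 tumors, 110, 62.1 and 57.6 with anti-PD-1, 168, 78.8 and 92.3 with DOX/IgG1 and 78.4, 53.5 and 138 with DOX/anti-PD-1, with groups that overlapped and a difference of 0.41 ± 0.29 (-0.20 to 1.02), or 0.23 without IgG1 replicate 1 and 0.24 without DOX/IgG1 replicate 1.

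By antibody, 9 of 17 p53 target genes tested had an unadjusted p below 0.05 in DOX/IgG1 vs IgG1, all higher, with a median of 0.81, against 7.73% of all genes. In DOX/anti-PD-1 vs anti-PD-1 it was 1 of 17 (5.88%), with a median of 0.26, against 8.63% of all genes. The count of 9 was 6 to 8 with a tumor left out, and that of 1 was 2 without DOX/anti-PD-1 replicate 1 and 3 without DOX/anti-PD-1 replicate 2. Without DOX/anti-PD-1 replicate 3 no target was higher and 1 was lower at that limit. The mean log2 level of the 18 genes was 4.05, 4.17 and 4.41 in the IgG1 tumors, 4.22, 3.88 and 4.40 with anti-PD-1, 5.37, 4.75 and 4.56 with DOX/IgG1 and 4.11, 4.11 and 4.93 with DOX/anti-PD-1. It was highest in DOX/IgG1 replicate 1 and DOX/anti-PD-1 replicate 3, and DOX/anti-PD-1 replicates 1 and 2 lay within the range of the tumors without doxorubicin. Mre11a was 1 of 7 members, of 43, with their highest value of the 12 in DOX/anti-PD-1 replicate 3 (49.41 TPM). It was within that range in replicates 1 and 2. In DOX/IgG1 replicate 1, where the p53 target list was highest, Mre11a had 40.65 TPM. A link between Mre11a and this list was not tested.

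Genes of proliferation and markers of cell types were read in the same way over both antibodies. At an unadjusted p below 0.05 stood 12% of all genes, 8.82% higher and 3.16% lower. The S phase list had 4.76% at that limit and the mitosis list 16.7%, all lower. Of 21 S phase genes 1 had an unadjusted p below 0.05 with doxorubicin, Rrm1, lower with a log2 difference of -0.37 ± 0.17, and the median log2 difference was 0.06. That median joins opposite signs by antibody, -0.184 with IgG1 and 0.23 with anti-PD-1, and was -0.057 without DOX/anti-PD-1 replicate 1, 0.162 without DOX/anti-PD-1 replicate 3 and -0.06 with median-of-ratios scaling. Of 18 mitosis genes 3 were lower at that limit, Ube2c (-0.90 ± 0.39), Mki67 (-0.84 ± 0.35) and Top2a (-0.66 ± 0.28), and the median was -0.31. This count of 3 was 0 without IgG1 replicate 2, anti-PD-1 replicate 2, DOX/IgG1 replicate 2 or DOX/anti-PD-1 replicate 3, 1 without IgG1 replicate 3 or anti-PD-1 replicate 1, and 2 without IgG1 replicate 1 or DOX/anti-PD-1 replicate 2, and the median ranged from -0.467 to -0.192. Without DOX/IgG1 replicate 1, Birc5 was called in DOX/IgG1 vs IgG1, with a difference of -2.257 (limma, Benjamini-Hochberg adjusted p 0.0389). Top2a, a target of doxorubicin, had 112, 128 and 131 TPM in the IgG1 tumors, 137, 168 and 124 with anti-PD-1, 107, 33.5 and 85.5 with DOX/IgG1 and 115, 155 and 60.1 with DOX/anti-PD-1. DOX/IgG1 replicates 1, 2 and 3 and DOX/anti-PD-1 replicate 3 were below all 6 tumors without doxorubicin. The summed level of the mitosis genes was 432, 644 and 592 in the IgG1 tumors, 621, 782 and 570 with anti-PD-1, 586, 188 and 343 with DOX/IgG1 and 804, 687 and 331 with DOX/anti-PD-1, in TPM, with Top2a or Mki67 the most abundant in each tumor and no gene at 0.

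Among cell type markers, 0 were called by limma with doxorubicin over both antibodies, and at an unadjusted p below 0.05 there were 3 of 12 epithelial markers (Krt19 and Cldn4 higher, Epcam lower), Dcn of 9 fibroblast markers, Vwf of 6 endothelial markers, Fabp4 and Retn of 6 adipocyte markers, Cd3g of 6 lymphocyte markers tested, 0 of 7 skeletal muscle markers and 0 of 8 myeloid markers tested. Apart from Epcam all were higher. Of all genes 12% were at that limit, 8.82% higher and 3.16% lower. The shares were 25% of epithelial, 11.1% of fibroblast, 16.7% of endothelial, 33.3% of adipocyte and 16.7% of lymphocyte markers tested. A difference above 0 was found in 6 of 12 epithelial, 6 of 9 fibroblast and 4 of 6 endothelial markers. Calls appeared when 1 tumor was left out. Without DOX/IgG1 replicate 1, limma called Krt19, Cldn4 and Esr1 of the epithelial markers (Benjamini-Hochberg adjusted p 0.0577, 0.0304 and 0.045), Dcn and Lum of the fibroblast markers (0.0208 and 0.0412) and Cd3g (0.0915), all higher. In DOX/IgG1 vs IgG1 it then called Dcn and Cd3g (0.0458 and 0.0954). No other alternative called a cell type marker in any comparison. For the pooled comparison the median log2 differences were 0.03, 0.25, 0.08, 1.00, 0.55, 0.12 and 0.15 in the same order. Summed adipocyte markers were 36.1, 187 and 120 in the IgG1 tumors, 51, 44.1 and 81.2 with anti-PD-1, 94.2, 448 and 65.8 with DOX/IgG1 and 509, 120 and 122 with DOX/anti-PD-1, in TPM. Adipoq or Fabp4 was the most abundant, 2 of the 6 were at 0 in IgG1 replicate 1, and all 3 DOX/anti-PD-1 tumors were above all 3 anti-PD-1 tumors, while the other pairs of groups overlapped. Skeletal muscle markers summed to 112, 28 and 451 in the IgG1 tumors, 444, 42.8 and 21.9 with anti-PD-1, 40.2, 125 and 171 with DOX/IgG1 and 732, 0.27 and 139 with DOX/anti-PD-1, in TPM. Acta1, Myh4, Mylpf or Actn3 was the most abundant, and 6 of the 7 were at 0 in DOX/anti-PD-1 replicate 2, 3 in DOX/IgG1 replicate 1 and 1 in IgG1 replicate 2 and anti-PD-1 replicate 2.

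Lymphocyte markers summed to 22.7, 15.4 and 5.98 in the IgG1 tumors, 2.68, 16.5 and 9.67 with anti-PD-1, 6.63, 48.6 and 42.2 with DOX/IgG1 and 14.3, 20.6 and 32.8 with DOX/anti-PD-1, in TPM, with Cd3e or Cd3g the most abundant and 1 to 8 of the 10 at 0 in each tumor. Myeloid markers summed to 286 to 599 TPM with Lyz2 the most abundant and 1 to 3 of the 9 at 0, fibroblast markers to 845 to 2829 TPM with none at 0 and again with DOX/anti-PD-1 above anti-PD-1 in all tumors, and endothelial markers to 75.7 to 161 TPM with none at 0. The tumors thus held RNA of fat, muscle and stroma in unequal amounts.

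**Figure D5:**
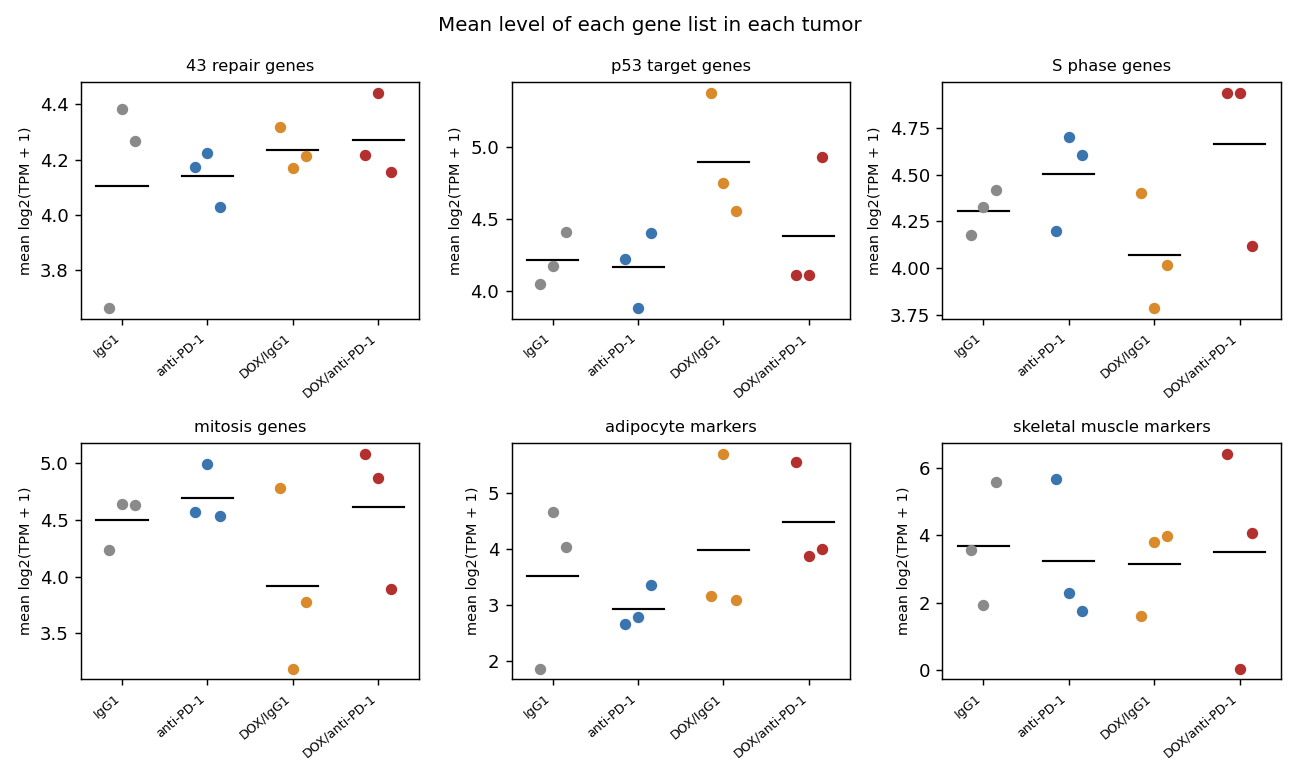
The mean log2 level of the 43 members and of the p53 target, S phase, mitosis, adipocyte and skeletal muscle lists in each tumor. The members differ little between groups, the p53 target genes are high in DOX/IgG1, and the mitosis genes are low in 3 tumors with doxorubicin.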

How the data were processed

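Total RNA of 12 snap frozen tumors, 3 for each of 4 treatments, was sequenced by the authors with a stranded total RNA kit. The values were deposited by the authors with decimal commas, per sample, and were read as log2(TPM + 1). The name TPM was taken from the study's methods, which use log2 TPM values for gene set enrichment. STAR, RSEM and the mm10 build are credited to the submitters' processing notes. Whether counting used the strand was not given in the sources used here. Of the 43 members, 15 share exon bases with a listed gene on the opposite strand. They are Rad54l, Mre11a, Xrcc3, Xrcc4, Xrcc6, Trp53bp1, Fanca, Fancc, Fancd2, Fanci, Msh6, Lig3, Ercc1, Xpa and Ddb2. The most shared bases were in Trp53bp1 (2130) and Lig3 (1826), against 920 in Fanca, 257 in Fancd2, 154 in Mre11a and 77 in Xpa. The values are not counts, so the depth behind each is unknown; 13238 to 14109 genes of a tumor reached 1 TPM.

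TPM was recovered from the deposited values, and log2(TPM + 1), with a pseudocount of 1, was fitted with limma 3.58.1 (lmFit, eBayes with trend) in R 4.3.3, two-sided. Genes with 1 TPM in 3 tumors of a comparison were tested, and p was adjusted over all of them by Benjamini-Hochberg. A gene was called at an adjusted p below 0.1 and a log2 difference above 1 in size. Comparisons were 4 pairs of groups (6 tumors each), doxorubicin over both antibodies (12 tumors, antibody as covariate) and the interaction. Exact permutation tests used the difference of means. The code was tested on simulated data.

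The members, roles, gene lists and motifs were chosen with earlier results of these data known. Values in every tumor were given for the most abundant member and the member with the largest difference of each role, for members with an unadjusted p below 0.05 and for Brca1, Atm, Chek1, Parp1, H2afx and Msh6, and for some others that separated groups. The other lists were further repair genes, p53 target, S phase and mitosis genes, and epithelial, fibroblast, endothelial, adipocyte, skeletal muscle, lymphocyte and myeloid markers. Gene coordinates are from GENCODE vM21 (GRCm38), and promoter windows from RefSeq (GRCm38.p6). Alternatives were a pseudocount of 0.1 TPM, no filter, a mean of at least 5 TPM, scaling by the median of ratios, eBayes without trend, 1 fit of all 12 tumors (for pairs of groups; its use for single genes was chosen after seeing the data), the replicate number as a term, and leaving out each tumor in turn.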

Additional observations from a re-analysis of the deposited data

Results flagged for a closer look

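For 6 of 157 genes tested of the comparison lists (3.82%), none of them a repair gene of the 43, the difference with doxorubicin was not the same with the 2 antibodies at an unadjusted p below 0.05 in the interaction test (limma, 12 tumors). The interaction is the log2 difference with doxorubicin given anti-PD-1 minus that given IgG1. Among the p53 target genes it was -1.368 for Ccng1 (p 0.01) and -1.9156 for Trp53inp1 (p 0.00276). Of the mitosis genes, Birc5 had 1.9046 (p 0.021). Of the fibroblast markers, Col1a1 had 2.1781 (p 0.00163), Col3a1 1.0048 (p 0.0313) and Postn 1.1284 (p 0.0286). Each had a Benjamini-Hochberg adjusted p of 0.993 in limma, and over the alternatives the lowest was 0.256, for Trp53inp1. Of all 14735 genes, 4.71% had an unadjusted p below 0.05 in this test, and chance alone gives about 5%. Ccng1, Trp53inp1 and Col1a1 kept a p below 0.05 in all 18 alternatives. The p of Birc5 reached 0.0597 (without DOX/anti-PD-1 replicate 1), that of Col3a1 0.0839 (without DOX/IgG1 replicate 1) and that of Postn 0.0838 (without IgG1 replicate 3), and each was above 0.05 in 4, 6 and 5 of the alternatives.

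Trp53inp1 had 59.3, 103 and 115 TPM with IgG1, 147, 118 and 175 with anti-PD-1, 196, 210 and 151 with DOX/IgG1 and 48.5, 65.8 and 151 with DOX/anti-PD-1. DOX/anti-PD-1 replicates 1 and 2 were below all DOX/IgG1 and all anti-PD-1 tumors, and replicate 3 was not. Col1a1 had 432, 527 and 745 TPM with IgG1, 238, 234 and 132 with anti-PD-1, 149, 339 and 274 with DOX/IgG1, and 220, 488 and 525 with DOX/anti-PD-1. It was highest in the IgG1 tumors and in DOX/anti-PD-1 replicates 2 and 3.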

How the results depend on the processing

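No alternative called a member. Of 985 log2 differences of named genes from the alternatives, 973 kept their sign and their side of the limits for a call, 6 came to pass those limits and 6 changed sign. Of 216 counts, 127 were within 1.5 times the count first given and 89 were not. Medians of the members and means of roles were not tested. Of 72 medians 69 moved by less than 1 SD between replicates, and 15 of the 72 changed sign, 14 of them within that SD. Of 128 means of roles all moved by less, and 8 changed sign, all of base excision and single-strand break repair. A small shift here therefore does not mean a kept sign. The cause of these shifts was not tested.

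The number of genes called by limma was 5, 0, 0 and 0 in DOX/IgG1 vs IgG1, DOX/anti-PD-1 vs anti-PD-1, anti-PD-1 vs IgG1 and DOX/anti-PD-1 vs DOX/IgG1, 3 with doxorubicin over both antibodies and 1 for the interaction. With eBayes without trend it was 13, 3, 1, 3, 0 and 3. With a mean of at least 5 TPM it was 3 in DOX/IgG1 vs IgG1, 13 over both antibodies and 0 for the interaction. With median-of-ratios scaling it was 3 in DOX/anti-PD-1 vs DOX/IgG1, 14 over both antibodies and 0 for the interaction. A pseudocount of 0.1 TPM gave 0 and no filter gave 3 for the interaction. All 12 tumors in 1 fit gave 2 in DOX/anti-PD-1 vs DOX/IgG1. For single genes of the pairs this fit was added after seeing the data; in it the unadjusted p was 0.0775 for Fanca and 0.0743 for Fancd2 in DOX/anti-PD-1 vs DOX/IgG1 and 0.0685 for Xpa in DOX/anti-PD-1 vs anti-PD-1. Leaving out each tumor in turn gave 0 to 122, 0 to 4, 0 to 4, 0 to 4, 0 to 212 and 0 to 1, and the highest values of 122 and 212 were without DOX/IgG1 replicate 1.

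Members with an unadjusted p below 0.05 numbered 3, 2, 0, 3, 4 and 0. In DOX/anti-PD-1 vs DOX/IgG1 all 12 tumors in 1 fit gave 1, and for the interaction median-of-ratios scaling gave 1. Leaving out a tumor gave 2 to 5, 1 to 7, 0 to 3, 0 to 5, 2 to 7 and 0 to 2. Members whose groups did not overlap numbered 5, 4, 1 and 4 in the pairs of groups. Scaling gave 0 in anti-PD-1 vs IgG1 and 7 in DOX/anti-PD-1 vs DOX/IgG1, and leaving out a tumor gave 7 to 11, 5 to 10, 2 to 13 and 5 to 12. Groups of 3 and 2 come apart more easily, and no share of all genes is given for these last counts. With a tumor left out, the median log2 difference of the members ranged from -0.108 to 0.239, 0.077 to 0.201, -0.229 to 0.14, 0.012 to 0.156, 0.013 to 0.193 and -0.099 to 0.24, in the same order of comparisons.

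With the replicate number as a term (replicate block), 2 genes were called in DOX/IgG1 vs IgG1, 1 over both antibodies and 0 for the interaction, and 4 members had an unadjusted p below 0.05 in DOX/anti-PD-1 vs anti-PD-1. The labels do not say that equal numbers were handled together. Over 14735 genes, 12 pairs of tumors with the same number had correlations of deviations from the group mean of -0.096 to 0.134, and 6 of 12 tumors were closest to a tumor of their own number.

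Over both antibodies the log2 difference of Parp1, 0.08, was -0.042 with scaling and -0.058 to 0.209 with a tumor left out, and that of Atm, -0.13, was -0.275 to 0.155. With a tumor left out, Phlda3 ranged from 0.896 to 1.288, Plk2 from 0.63 to 1.008, Krt19 from 0.61 to 1.182, Cldn4 from 0.825 to 1.188, Dcn from 0.888 to 1.553 and Cd3g from 1.478 to 2.076. Each of these 6 was called by limma without 1 tumor, Phlda3 without DOX/anti-PD-1 replicate 2 and the others without DOX/IgG1 replicate 1, at Benjamini-Hochberg adjusted p of 0.0905, 0.075, 0.0577, 0.0304, 0.0208 and 0.0915. Esr1 and Lum were also called without DOX/IgG1 replicate 1.

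The groups held 3 tumors each. Doxorubicin was given from a larger tumor size and with another antibody schedule. Whole tumors were measured, with no count of cells, and the values hold no depth. Protein, phosphorylation and DNA breaks were not measured here.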
